A study of Mus musculus with 2 samples.

Results

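CTCF ChIP-seq of newborn mouse lung placed 1230 of its 64732 sites at promoters of long non-coding RNA (lncRNA) genes and away from protein-coding promoters, which is 1.9% of the sites. A site was a peak of the authors' optimal list on chromosomes 1 to 19 and X, which they thresholded on the irreproducible discovery rate (IDR), a measure of how consistently peaks rank between data sets; a peak in each replicate list was not a condition. It counted as a lncRNA promoter site when its summit lay within 1000 bp of an annotated transcription start site (TSS) of a gene of a non-coding biotype in GENCODE M21 (lincRNA, antisense, processed transcript, sense intronic, sense overlapping or bidirectional promoter lncRNA) and more than 1000 bp from every protein-coding transcript's TSS. A further 1020 sites lay near TSSs of both kinds and were left out by that rule. The choice used positions alone, not the height of the peaks. For comparison, 10484 sites lay within 1000 bp of a protein-coding TSS, and 53018 lay in neither class.

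The chromatin came from whole lung of mice of strain B6NCrl on postnatal day 0, with sex not collected, and was precipitated with an antibody against CTCF. There was 1 group with 2 replicates and no second age, tissue or genotype. Both replicates carried the same biosample and donor identifiers, so their difference measures the spread between these libraries, which may be technical. The number of reads behind the peaks is unknown. In bulk tissue, fewer cells with CTCF at a site and less CTCF per cell cannot be told apart. No RNA was measured, so whether the annotated lncRNAs were transcribed in these lungs is not known, and "promoter" means an annotated start only.

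The zinc finger protein CTCF recognises a long directional motif, halts the cohesin complex as it extrudes chromatin loops, and thereby helps to form domain boundaries and insulators. CpG methylation within the motif can block its binding, which is the basis of its allele-specific binding at imprinted loci. LncRNAs are transcripts without a long open reading frame; a few, such as Xist, have known roles in silencing or nuclear structure, while the role of most is not known.

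The motif is shown first, because its presence or absence separates the sites described here. Its central 12 bases, of which 4 positions allow 2 bases, are called the CTCF core below. It was searched on both strands within 50 bp of each summit with at most 1 mismatch. Cores of 8 of the strongest lncRNA promoter sites follow with their flanks, in order of their mean rank in the replicates, in GRCm38, 5′ to 3′ on the strand of the core, with the core in capitals.
Gm33195, chr13:43864752-43864793, plus strand: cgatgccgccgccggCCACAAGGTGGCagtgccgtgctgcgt
Gm12052, chr11:22617752-22617793, minus strand: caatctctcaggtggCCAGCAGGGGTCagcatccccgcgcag
Gm26812, chr8:121851142-121851183, plus strand: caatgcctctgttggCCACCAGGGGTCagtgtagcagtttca
A930015D03Rik, chr17:35993810-35993851, minus strand: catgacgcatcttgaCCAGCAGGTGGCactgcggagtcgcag
Gm37584, chr3:88526414-88526455, minus strand: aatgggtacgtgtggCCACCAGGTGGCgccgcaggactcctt
Gm31408, chr9:31559644-31559685, plus strand: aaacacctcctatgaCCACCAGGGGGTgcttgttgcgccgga
Gm15996, chr12:111732675-111732716, minus strand: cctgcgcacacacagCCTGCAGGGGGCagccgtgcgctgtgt
4930478P22Rik, chr5:35361987-35362028, plus strand: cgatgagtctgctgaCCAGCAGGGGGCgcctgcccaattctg
At genes that carry a descriptive symbol, the cores read as follows. Those of Zfp469, Mir17hg and Meg3 have the change A3G, counted from 1 at the 5′ end of the core, which places a CpG inside it.
Zfp469, chr8:122269608-122269649, minus strand: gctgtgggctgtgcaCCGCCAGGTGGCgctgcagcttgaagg
Tvp23bos, chr11:62921199-62921240, plus strand: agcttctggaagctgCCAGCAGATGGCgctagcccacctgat
Tspan32os, chr7:143008198-143008239, plus strand: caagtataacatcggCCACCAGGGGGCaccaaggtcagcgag
Snhg7os, chr2:26640311-26640352, minus strand: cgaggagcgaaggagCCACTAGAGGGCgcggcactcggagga
Tbx3os2, chr5:119691309-119691350, minus strand: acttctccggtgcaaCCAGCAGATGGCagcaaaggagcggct
Xist, chrX:103484217-103484258, plus strand: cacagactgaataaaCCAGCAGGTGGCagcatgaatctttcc
Mir17hg, chr14:115042211-115042252, minus strand: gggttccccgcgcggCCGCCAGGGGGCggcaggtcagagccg
Meg3, chr12:109543025-109543066, minus strand: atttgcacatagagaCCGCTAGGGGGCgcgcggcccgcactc

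Among the 1230 sites, 492 held a core (40%, 95% Wilson interval 37.3 to 42.8%). The share was 20.6% at protein-coding promoter sites (19.8 to 21.3%), 54.0% at the other sites (53.6 to 54.4%) and 48.3% over all sites. Windows 1000 bp to either side of the lncRNA promoter summits held a core in 39 of 2460 cases (1.59%). RefSeq promoter sequences of 300 bp held one in 66 of 589 entries that matched genes with a lncRNA promoter site (11.2%) and in 4.33% of all 32851 entries. The 589 entries covered 466 genes, which were chosen for having a site, so the comparison is not independent of that choice. A core without mismatch was present at 133 sites (10.8%), and 70.6% had a match with up to 2 mismatches, so the share depends on the mismatch limit. Intervals throughout cover counting error only, and neighbouring sites are not independent.

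A core was not needed for a high peak. The highest of the lncRNA promoter sites, at the lincRNA AC122818.2, had no match with fewer than 3 mismatches. Of the 100 highest lncRNA promoter sites 31 had no core, against 738 of all 1230. Lacking a core by this limit is not the same as lacking the motif. Epb41l4aos, among the 10 highest, had a match with 2 mismatches. The sequences within 50 bp of 4 summits without a core are given next, with the closest match in capitals, which differs from the core by 3 bases for AC122818.2 and Peg13, 2 for Snhg15 and 4 for Kcnq1ot1. At Snhg15, Peg13 and Kcnq1ot1 the other strand held an equally close match, which is not marked. At AC122818.2 the strand shown held another equally close match, ccactgagcggc, which is also not marked.
AC122818.2, chr17:87571747-87571847, minus strand: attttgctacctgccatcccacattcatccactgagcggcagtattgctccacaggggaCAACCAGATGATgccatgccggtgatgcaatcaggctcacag
Snhg15, chr11:6528848-6528948, plus strand: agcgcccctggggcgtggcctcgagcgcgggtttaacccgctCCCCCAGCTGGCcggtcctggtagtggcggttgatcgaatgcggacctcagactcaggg
Peg13, chr15:72810131-72810231, plus strand: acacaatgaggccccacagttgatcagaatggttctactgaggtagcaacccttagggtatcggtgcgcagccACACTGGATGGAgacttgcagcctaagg
Kcnq1ot1, chr7:143296457-143296557, plus strand: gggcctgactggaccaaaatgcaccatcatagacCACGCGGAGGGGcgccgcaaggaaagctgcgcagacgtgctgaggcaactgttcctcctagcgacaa

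The signal of these peaks spanned a wide range and was higher than at protein-coding promoters. The median of the authors' pooled signal was 92.6 at lncRNA promoter sites (quartiles 36.0 and 239), against 56.6 at protein-coding promoter sites and 76.2 over all sites. On the log2 scale the medians were 6.53, against 5.82 and 6.25. In replicate 1 the median signal was 49.4 at lncRNA promoter sites and 31.4 at protein-coding promoter sites, and in replicate 2 it was 46.5 and 29.2. The order of both classes was thus the same in each replicate. The pooled signal of single lncRNA promoter sites ran between 5.79 and 576. Of the 1000 highest sites of the whole list, 31 were lncRNA promoter sites, which made up 1.9% of all sites.

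The replicates differed little at these sites. Of the 1230 sites, 1183 had a peak in both replicates within 100 bp of the summit, 20 had none in replicate 1 and 30 none in replicate 2. The median absolute log2 ratio of the replicate signals was 0.18 at lncRNA promoter sites, 0.25 at protein-coding promoter sites and 0.21 over all sites. Those classes were not matched for signal, and at lncRNA promoter sites in the higher-signal part of the list the ratio was 0.12. Replicate 1 was the higher at 754 of the 1183. In the conservative list, 1080 of the sites had a peak with the same start and end (87.8%, 85.9 to 89.5%). This held for 82.5% of protein-coding promoter sites and 87.4% of all sites, so the share was near that of the whole list. Peaks with other ends were not counted as matches. By the same rule of positions, the conservative list itself gave 1190 lncRNA promoter sites, so it is not simply a smaller part of the optimal list.

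At the strongest sites both replicates gave similar heights. AC122818.2, with a summit 143 bp upstream of its TSS at chr17:87571661-87571948, reached 285 in replicate 1 and 295 in replicate 2. Gm33195 reached 282 and 294, and Gm12052 reached 278 and 289. Gm26812 reached 278 and 262, A930015D03Rik 268 and 262, Gm37584 253 and 276, Gm31408 257 and 253, and Gm15996 260 and 242. All of these carry clone or predicted names, as did 1021 of the 1098 genes with a lncRNA promoter site. AC113104.3 and Epb41l4aos, on chromosome 18, complete the 10 highest, with 275 and 271 for AC113104.3 and 266 and 230 for Epb41l4aos, which is known as a host of a small nucleolar RNA.

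Among genes with a descriptive symbol, several of the highest sites lay at transcripts antisense to, or divergent beside, a known protein gene. Kdm6bos, beside the histone demethylase gene Kdm6b, had 229 in replicate 1 and 212 in replicate 2. Tvp23bos had 210 and 216, and Tspan32os, beside a tetraspanin gene, had 207 and 203. Notumos, beside the gene of the Wnt deacylase Notum, had 211 and 196, and lay 1550 bp from the nearest protein-coding TSS. Rab10os had 180 and 161, with its summit 14 bp from the annotated TSS. Tbx3os2, near the T-box transcription factor gene Tbx3, had 164 and 170. Zfp469, which GENCODE M21 gives as a lincRNA although its name is that of a zinc finger protein, had 228 and 216. Ptprv, a tyrosine phosphatase gene annotated there as a processed transcript, had 204 and 189 at the highest of its 3 sites. These sites were chosen for their height in both replicates and for a descriptive symbol, and many such symbols are opposite-strand names. Their values and names thus only describe them. Of 286 annotated genes with an opposite-strand name, 38 had a lncRNA promoter site (13.3%, 9.84 to 17.7%), an interval that includes the 11.4% of all lncRNA genes. A further 52 had a site that was also within 1000 bp of a protein-coding TSS.

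Of 9598 annotated lncRNA genes, 1098 had at least 1 lncRNA promoter site (11.4%, 10.8 to 12.1%). Counting also sites near a protein-coding TSS, 1892 had a site (19.7%), against 39.8% of 21705 protein-coding genes. These gene classes were not matched for the number of annotated starts. Of the lncRNA genes, 7250 had only 1 distinct TSS, while the protein-coding genes had 54088 distinct TSSs. The share was 11.6% for lincRNAs (614 of 5305), 11.2% for antisense genes (331 of 2958), 14.6% for processed transcripts (115 of 788) and 9.17% for sense intronic genes (30 of 327). Of 190 bidirectional promoter lncRNAs, which by definition start beside a protein-coding gene, 4 had a lncRNA promoter site, while 57.9% had a site of any kind. The share was higher for genes with more annotated starts, at 9.77% for genes with 1 distinct TSS, 15.1% with 2, 16.5% with 3 to 5, and 31.1% with 6 or more. The share also depends on the distance allowed and fell to 4.74% when the limit was 250 bp.

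**Figure D1:**
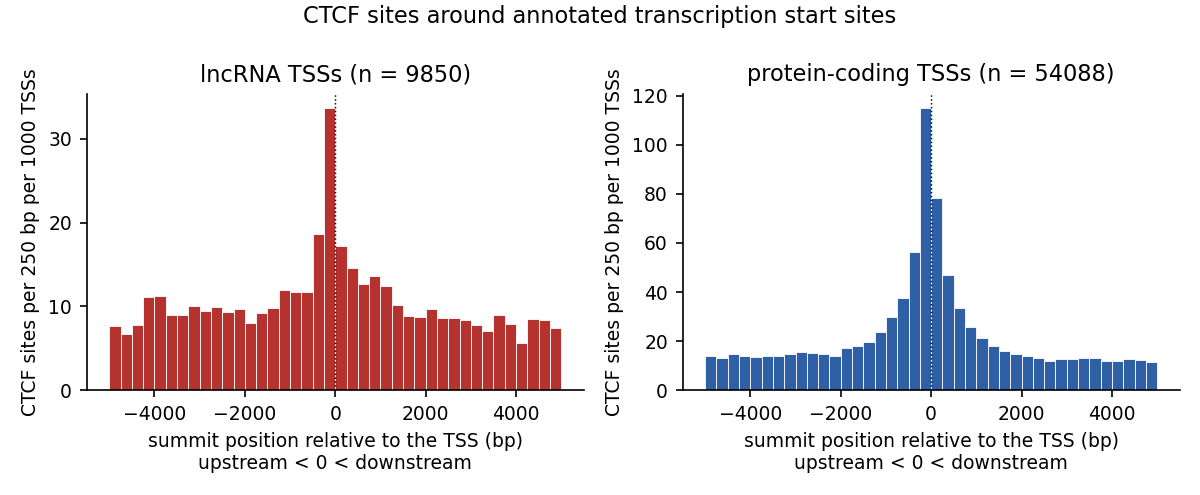
CTCF site summits per 250 bp and per 1000 TSSs (vertical axis) against the position relative to the TSS in bp (horizontal axis, upstream negative), for 9850 lncRNA TSSs more than 6000 bp from any protein-coding TSS (left) and 54088 protein-coding TSSs (right). The vertical axes differ in scale. In both panels the highest bar is the 250 bp just upstream of the TSS. It held 33.7 sites per 1000 lncRNA TSSs and 115 per 1000 protein-coding TSSs. A site near several TSSs counts once for each, and the protein-coding TSSs were not filtered by distance.

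The sites gathered at the start itself, mainly on its upstream side. Around the 9850 lncRNA TSSs more than 6000 bp from any protein-coding TSS, the 250 bp just upstream held 33.7 sites per 1000 TSSs and the 250 bp just downstream held 17.2. Bins 3000 to 5000 bp away averaged 9.09 upstream and 7.73 downstream. At the 54088 protein-coding TSSs the same bins held 115 and 78.3 next to the start and 14.0 and 12.4 farther out. A site near several starts counted once for each of them. The protein-coding TSSs were not filtered by distance to other starts, so the classes are not matched. Over all lncRNA promoter sites, 667 summits lay upstream of the nearest lncRNA TSS and 563 downstream. The upstream ones had a median pooled signal of 115 and a core in 43.0%, and the downstream ones 69.9 and 36.4%.

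Most sites lay near the outermost start of their gene, but 708 of the 1098 genes with a site had only 1 distinct TSS. For those genes no other start was possible, so the share does not measure a preference for first starts. In 1074 of 1230 cases (87.3%, 85.3 to 89.1%) the summit was within 1000 bp of the outermost 5′ end of the nearest lncRNA gene, and in 156 (12.7%) it was at a start inside the gene. The summit fell in a lncRNA exon at 305 sites, in a lncRNA intron at 380 and outside lncRNA transcripts at 545. It lay inside a protein-coding transcript at 384 sites, and in an exon of one at 79. The 255 sites within 100 bp of the TSS had a median pooled signal of 123, against 88.6 for the 250 sites at 750 to 1000 bp, but the bins between them did not descend in order, with 84.0, 106 and 61.7.

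**Figure D2:**
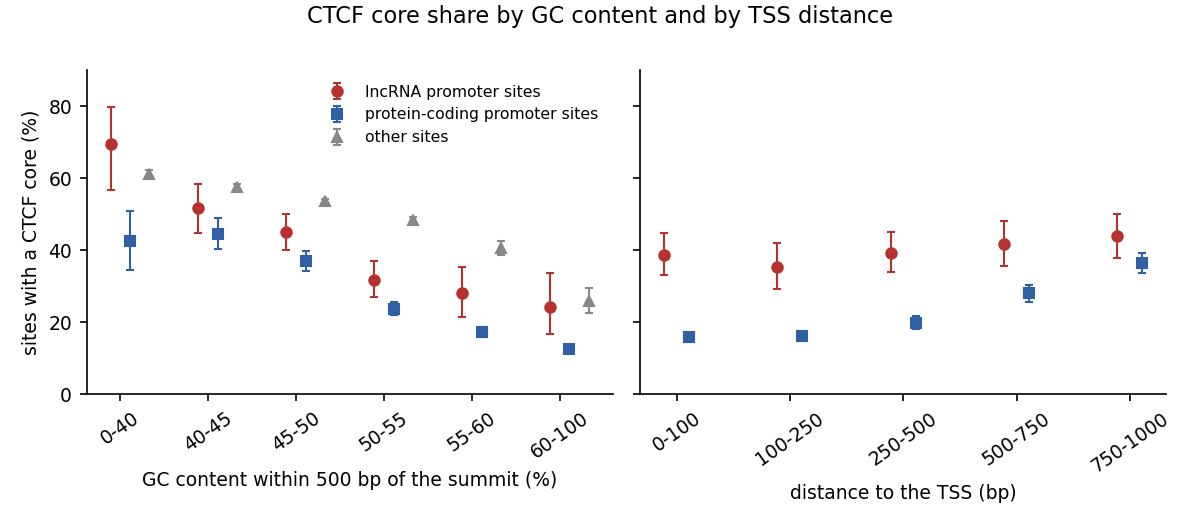
Percentage of sites with a CTCF core (vertical axis) by GC content within 500 bp of the summit (left, in %) and by distance from summit to TSS (right, in bp), for lncRNA promoter sites (circles), protein-coding promoter sites (squares) and, on the left, other sites (triangles); bars are 95% Wilson intervals. At lncRNA promoter sites the share was 69.5% at a GC content up to 40% and 24.2% above 60%, and it lay between 35.4 and 44.0% at every distance.

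The core share followed base composition. Lung lncRNA promoter sites had a median GC content of 49.6% within 500 bp of the summit, against 57.6% at protein-coding promoter sites and 47.1% over all sites. Their ratio of observed to expected CpGs had a median of 0.320, against 0.669 and 0.234. By GC content, 69.5% of the 59 lncRNA promoter sites at or under 40% held a core, then 51.7% of 207, 45.1% of 384, 31.7% of 328, 28.0% of 157 and, above 60%, 24.2% of 95. In the same classes protein-coding promoter sites held one in 42.7, 44.6, 37.1, 23.8, 17.2 and 12.7%. The share at lncRNA promoter sites was the higher in each class, and the 95% intervals overlapped only between 40 and 45% GC. The 155 sites with GC above 50% and a CpG ratio above 0.6, the usual base composition of a CpG island, held a core in 14.8% and had a median pooled signal of 65.6, against 43.6% and 97.9 for the other 1075.

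Core and height went together. Split at the quartiles of the pooled signal of all sites, lncRNA promoter sites held a core in 19.8, 28.6, 38.3 and 66.3%, low to high. Protein-coding promoter sites held one in 7.33, 14.1, 24.0 and 48.7%. By distance to the TSS, the share at lncRNA promoters was 38.8% within 100 bp and 44.0% at 750 to 1000 bp. At protein-coding promoter sites it was 15.8% and 36.4% at the same distances.

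Of 482 lncRNA promoter sites whose core was clearly on 1 strand, 255 had it on the strand of the nearest lncRNA transcript (52.9%, 48.4 to 57.3%). The other 10 sites with a core matched both strands equally and were left out. Close to the start the share was higher. Within 100 bp it was 63 of 97 (65.0%, 55.1 to 73.7%), and from 100 to 250 bp 44 of 72 (61.1%, 49.6 to 71.5%). In the 3 classes beyond 250 bp it was 47.7, 47.9 and 46.3%, and each of those intervals included 50%. Protein-coding promoter sites gave 343 of 526 within 100 bp (65.2%, 61.0 to 69.2%), and the intervals of both classes overlapped at each distance. Of the 97 lncRNA sites, the 69 with a summit upstream of the TSS had 49 cores on the transcript's strand (71.0%, 59.4 to 80.4%), and the 28 others had 14 (50%, 32.6 to 67.4%).

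**Figure D3:**
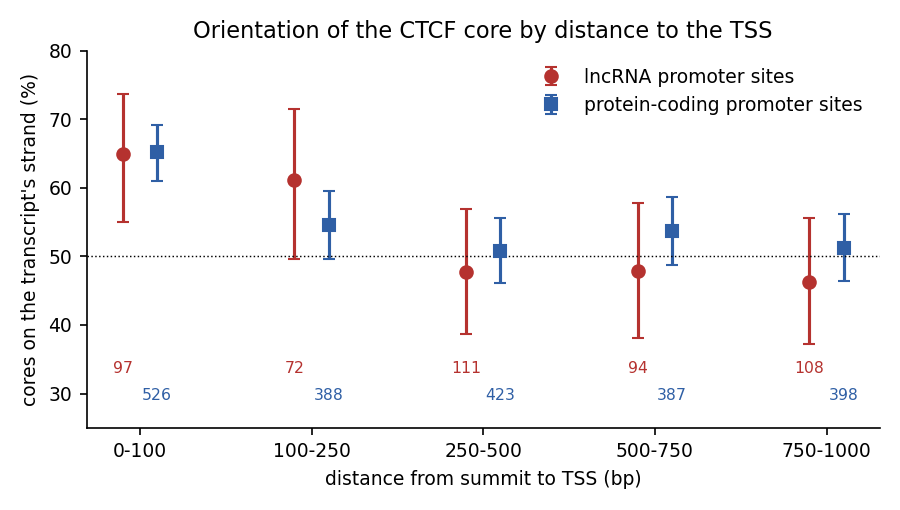
Percentage of cores on the strand of the nearest transcript (vertical axis) by distance from summit to TSS in bp (horizontal axis), for lncRNA promoter sites (circles) and protein-coding promoter sites (squares), with 95% Wilson intervals and the number of cores at the foot. In both classes the share was about 65% within 100 bp, and beyond 250 bp the intervals of the lncRNA promoter sites spanned the dotted line at 50%.

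The 482 cores comprised 171 different 12-base sequences, and 1 of them stood apart. It was present at 61 sites (12.7%, 9.98 to 15.9%), against 22 for the next most frequent. Its share was 6.00% among sites of the higher-signal part of the list and 6.51% within 250 bp of the TSS. It departs from the core by the change Y5A, in which Y stands for C or T. All 61 copies lay in repeat-masked sequence, compared with 33 of the 421 other cores (7.84%). The 5 strongest of these sites are shown to make the shared letters and the differing flanks visible.
Gm16755, chr11:120489437-120489478, plus strand: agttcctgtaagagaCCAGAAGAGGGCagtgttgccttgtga
Gm33533, chr1:36744772-36744813, minus strand: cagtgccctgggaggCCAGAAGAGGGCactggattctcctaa
Gm15868, chr16:14311581-14311622, minus strand: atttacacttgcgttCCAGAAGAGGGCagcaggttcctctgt
Gm16001, chr5:124111260-124111301, minus strand: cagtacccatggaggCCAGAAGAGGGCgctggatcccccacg
1110038B12Rik, chr17:34952934-34952975, plus strand: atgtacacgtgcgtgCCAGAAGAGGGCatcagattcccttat

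Sites with that repeat-borne core were lower than sites with other cores. Their median signal was 29.4 in replicate 1 and 26.0 in replicate 2, against 117 and 114 for the 431 sites with another core. The 738 sites without a core had 31.0 and 28.8, so the repeat-borne cores were near them in height. None of the 61 was among the 100 highest lncRNA promoter sites, while 69 of the 431 were. The same 12 bases made up 10.6% of cores at protein-coding promoter sites and 19.4% over all sites. In all, 147 lncRNA promoter summits were in repeat-masked sequence (11.95%, 10.3 to 13.9%), against 6.21% at protein-coding promoter sites and 19.5% over all sites. The share was 6.73% for sites within 250 bp of the TSS. In mouse, sequences of the B2 family of short interspersed elements are known to carry CTCF motifs; the family of these copies was not tested.

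**Figure D4:**
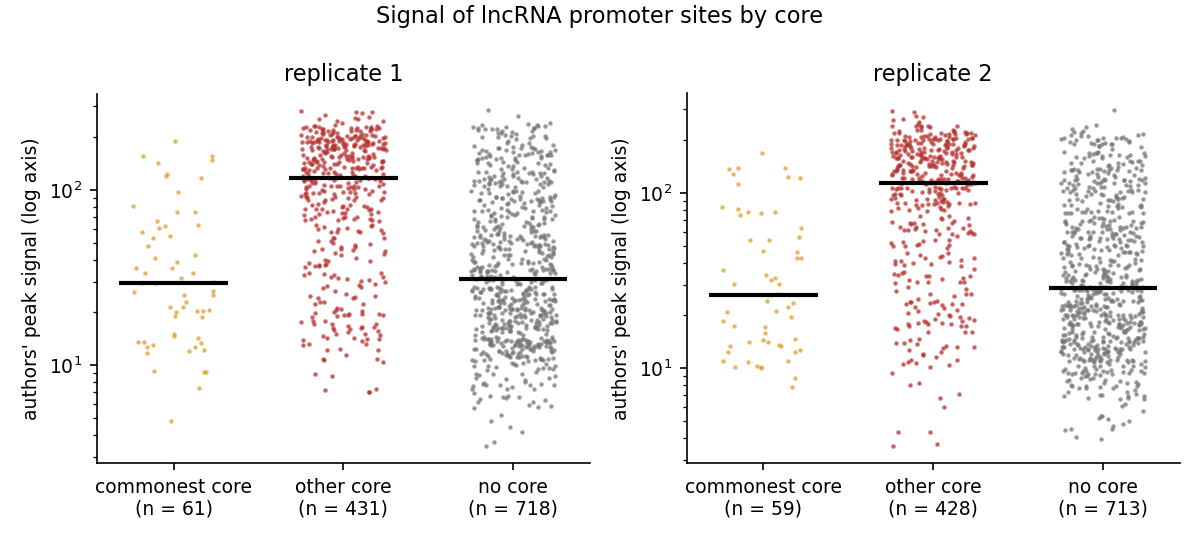
Authors' peak signal (vertical log axis) of each lncRNA promoter site in replicate 1 (left) and replicate 2 (right), by whether it had the commonest 12-base core, another core or no core; points are sites, black lines medians, and sites with no peak in a replicate are absent. The medians of replicate 1 were 29.4, 117 and 31.0, and those of replicate 2 were 26.0, 114 and 28.8.

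Over all GC contents, CpGs inside the core were less frequent than at protein-coding promoters, but up to 50% GC they were not. They were present in 37 of 482 lncRNA promoter cores (7.68%, 5.62 to 10.4%), in 18.7% of protein-coding promoter cores (17.1 to 20.4%) and in 4.31% of all cores. The change A3G, seen above for Zfp469, Mir17hg and Meg3, made up 23 of the lncRNA promoter cores (4.77%), against 12.02% at protein-coding promoters. Where GC exceeded 50%, a CpG was in 12.5% of 168 lncRNA promoter cores and in 25.4% of 1437 protein-coding promoter cores. Up to 50% GC, which held 314 of the 482 lncRNA promoter cores, the shares were 5.10% (3.16 to 8.12%) at lncRNA promoters and 4.67% (3.33 to 6.52%) at protein-coding promoters, and the intervals overlapped. DNA methylation was not measured.

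Of 11 annotated imprinted lncRNA genes, 5 had a lncRNA promoter site (45.5%, 21.3 to 72.0%), against 11.4% of all lncRNA genes. The number of annotated starts was not matched in this comparison, and lncRNA genes with 6 or more distinct TSSs had a share of 31.1%. Meg3, a maternally expressed RNA of the Dlk1 to Dio3 cluster, had 3 sites. The highest of them, at chr12:109542946-109543152, had 106 in replicate 1 and 97.9 in replicate 2, and the others had 41.6 and 44.1, and 11.9 and 4.52. Peg13, a paternally expressed RNA from within an intron, had a pair of sites on either side of its TSS, with 85.3 and 71.6 at the higher one and 48.4 and 69.1 at the other. The highest site of each of these genes was above those of the remaining 3. Kcnq1ot1, the antisense RNA that silences the Kcnq1 domain on the paternal chromosome, had 11.5 and 16.4 at a site 42 bp inside its start. Airn, which does so for Igf2r, had 27.7 in replicate 1 and no peak in replicate 2. Nespas, antisense in the Gnas cluster, had 13.5 and 6.80. H19 had no site by the rule, since its nearest site was 1122 bp from its TSS, with 26.1 and 14.4. Alleles were not separated in these data.

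Of 6 X-linked lncRNAs known from X inactivation or from the X chromosome, 3 had a site (50%, 18.8 to 81.2%), against 11.4% of all lncRNA genes. The list was chosen with earlier results of these data known, and it includes Firre, a gene already known for CTCF binding. The share thus only describes these genes. The number of annotated starts was not matched either. Firre is among the lncRNA genes with 6 or more distinct TSSs, whose share was 31.1%. Xist, which coats the inactive X chromosome in females, had its site 993 bp upstream of the nearest TSS at chrX:103484150-103484360, with 162 in replicate 1 and 144 in replicate 2 and a core without mismatch on the strand opposite to Xist. Ftx, an activator of Xist, had 124 and 114 at a site 98 bp from a TSS, and 104 and 102 at another. Tsix, the antisense repressor of Xist, and Jpx had no lncRNA promoter site, with their nearest sites 3771 bp and 9309 bp away. Firre, an X-linked RNA whose locus is known for its many CTCF sites, had 4 sites, as many as any gene. In replicate 1 they had 74.7, 76.9, 66.5 and 58.5, and in replicate 2 65.8, 63.9, 65.1 and 73.2. The 4 sites were thus nearly equal in height. One was 174 bp upstream of the outermost start and the other 3 lay 43678 to 74216 bp inside the gene at starts of shorter transcripts. None held a core, and the closest matches, in capitals in the windows of 50 bp to either side listed here by position, had 2 mismatches or, in the third window, 3.
Firre, chrX:50561055-50561155, plus strand: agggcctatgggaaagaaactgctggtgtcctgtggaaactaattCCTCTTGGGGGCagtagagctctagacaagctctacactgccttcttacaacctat
Firre, chrX:50569252-50569352, minus strand: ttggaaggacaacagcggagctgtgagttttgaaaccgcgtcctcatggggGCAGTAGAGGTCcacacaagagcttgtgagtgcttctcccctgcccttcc
Firre, chrX:50591593-50591693, plus strand: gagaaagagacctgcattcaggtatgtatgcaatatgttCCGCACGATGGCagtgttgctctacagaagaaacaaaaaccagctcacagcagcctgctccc
Firre, chrX:50635445-50635545, minus strand: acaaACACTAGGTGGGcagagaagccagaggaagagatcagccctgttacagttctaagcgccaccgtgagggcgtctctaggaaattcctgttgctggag
The first and second of these Firre windows shared a run of 14 bases, and the other pairs shared runs of no more than 8 bases.

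**Figure D5:**
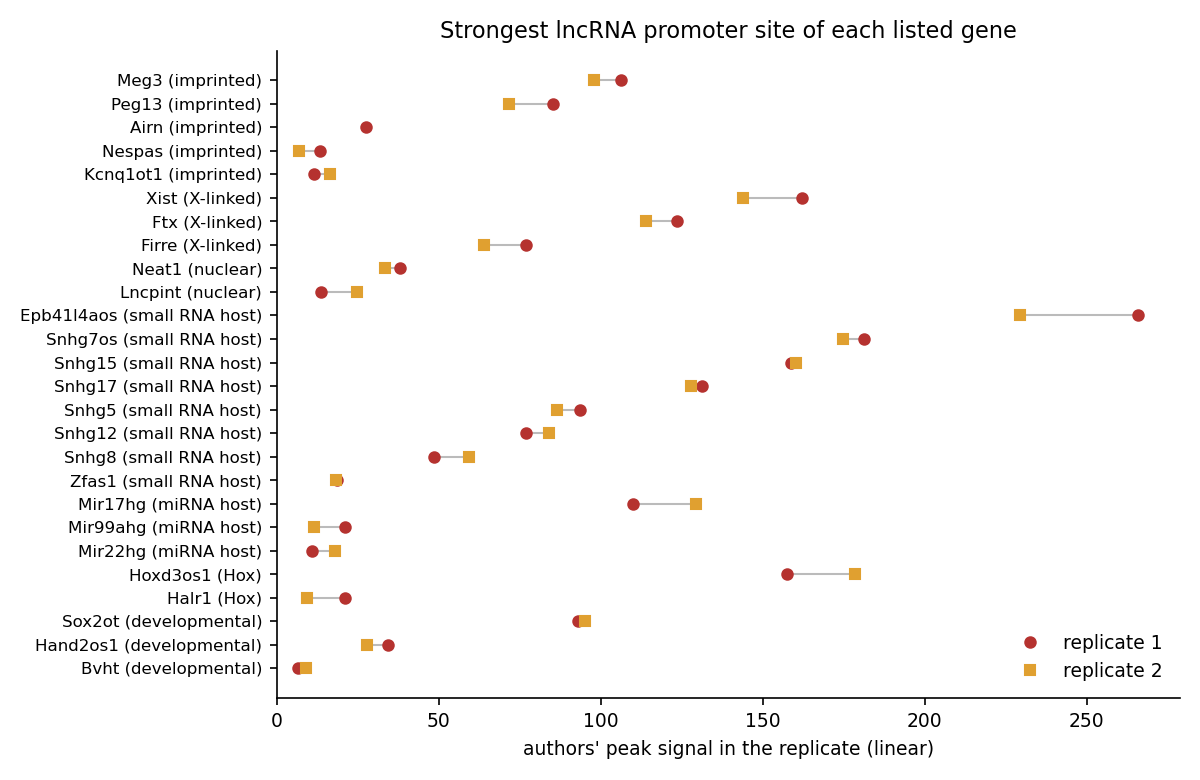
Authors' peak signal of replicate 1 (circles) and replicate 2 (squares), on a linear horizontal axis, at the strongest lncRNA promoter site of each listed gene (vertical axis, with the list in parentheses). Epb41l4aos had the highest values, 266 and 230, and Airn had a peak in replicate 1 only.

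Of 19 genes listed, mostly by symbol, as hosts of small nucleolar or other small RNAs, 8 had a lncRNA promoter site (42.1%, 23.1 to 63.7%). The share of all lncRNA genes was 11.4%. Not every listed gene need be a host, and Snhg7os has an opposite-strand name. The list was not tested, nor was it matched to all lncRNA genes for the number of annotated starts. Snhg7os had 181 in replicate 1 and 175 in replicate 2 at a site 47 bp upstream of its TSS. Snhg15 had 159 and 160, and Snhg17 131 and 128 at the highest of its 3 sites. Snhg5 had 93.7 and 86.4. The remaining listed genes with a site were Epb41l4aos, Snhg12, Snhg8 and Zfas1. A further 5 listed genes had a site that was also near a protein-coding TSS. Gas5, the growth arrest RNA, was 32674 bp from its nearest site. Of 10 miRNA host genes 3 had a site (30%, 10.8 to 60.3%), an interval that includes the 11.4% of all lncRNA genes. Mir17hg, which carries the miR-17 to miR-92a cluster and is known for its role in lung growth, had 110 and 129 at a site 629 bp upstream. Mir99ahg had 20.96 and 11.5, and Mir22hg had 10.9 and 18.1, so both were far below Mir17hg.

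Of the nuclear or abundant lncRNAs 2 of 9 had a site (22.2%, 6.32 to 54.7%), and of the developmental ones 3 of 16 (18.75%, 6.59 to 43.0%). Both intervals, and that of the Hox genes given here, include the 11.4% of all lncRNA genes. Neat1, the scaffold of paraspeckles, had 3 sites, the highest with 38.2 in replicate 1 and 33.3 in replicate 2, and Lncpint had 13.5 and 24.8. The highest Neat1 site lay 203 bp from a Neat1 TSS and 58 bp from a TSS of Frmd8os. Frmd8os also shared the Neat1 site with 18.1 and 25.7, again with the nearer TSS. Malat1, among the most abundant nuclear RNAs, had its nearest site 3726 bp from its start, and Pvt1, next to Myc, 7731 bp. Sox2ot, whose gene overlaps the transcription factor gene Sox2, had 93.0 and 95.1 at an internal start. Hand2os1, beside the heart transcription factor gene Hand2, had 34.4 and 27.9. Fendrr, a lncRNA needed for lung and heart development in mouse, had no site by the rule, its nearest being 1874 bp away and 598 bp from a protein-coding TSS of Foxf1, with 14.1 and 7.42. In the Hox clusters, which pattern the body axis, 2 of 11 lncRNA genes had a site (18.2%, 5.14 to 47.7%). Hoxd3os1 had 157 and 178, and Halr1 had 21.2 and 9.44. Hotair and Hottip were 4273 and 5642 bp from their nearest sites.

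A single gene seldom had several sites. Of the 1098 genes, 947 had 1, 133 had 2, 16 had 3 and 2 had 4, and 39 sites were shared by a pair of genes. Beside Firre, A330023F24Rik had 4 sites, with 143 in both replicates at the highest and 21.2 and 30.1 at the lowest. Ptprv was the highest of the genes with 3, and its other sites had 120 and 105, and 192 and 197. Neighbouring sites were common, since the nearest other CTCF site was a median of 3736 bp away, against 2790.5 bp at protein-coding promoter sites and 5799.5 bp over all sites. The weakest site by rank, at Bvht, had no peak in either replicate and a pooled signal of 7.07. The lowest pooled signal, 5.79, was at Gm14488.

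At the limit of the rule, the sites just inside were those of Gm44659 at 997 bp, with 96.8 and 85.1 in replicates 1 and 2, and Gm28872 at 1000 bp, with 54.3 and 63.0. Just outside, at 1001 bp, Gm15945 had 113 and 121, and AC160966.1 had 40.8 and 27.4. On the protein-coding side, the sites just inside were those of Gm15417 at 1001 bp, with 68.3 and 58.5, and 1700055D18Rik at 1002 bp, with 10.8 and 7.91. Just outside, 5430405H02Rik at 1000 bp had no peak in replicate 1 and 9.16 in replicate 2, and Gm20496 at 997 bp had 151 and 136.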

How the data were processed

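Peaks of both replicates, of the pooled data and of the IDR comparison (an optimal and a conservative list) were deposited by the authors on the mm10 assembly, per the labels. Each deposited peak list gives a signal value, a −log10 q-value and a score from the authors' peak caller. The aligner, the caller, its scaling of the signal, the cut-off on the IDR and the depth were not given in the sources used here. Of 64742 peaks of the optimal list, 64732 on chromosomes 1 to 19 and X were used. Each replicate list held 300000 peaks; a site took the highest signal within 100 bp of its summit. TSSs came from GENCODE M21, sequence and repeat masking from GRCm38, and 300 bp promoters from RefSeq on GRCm38. Shares have 95% Wilson intervals; as there is 1 group, no test between groups was made. GC content used 500 bp to either side of the summit. Named genes were the 10 highest sites, the 10 highest with a descriptive symbol, up to 5 genes per list, a set of well-known lncRNAs, the genes with most sites, the weakest site and those at the limit. The rule, the lists and the genes shown as sequence were chosen with earlier results of these data known, and the sequences, the strand share near the TSS and the commonest core after values were seen. Calculations used Python 3.11, pandas 2.3.3, NumPy 2.4.6 and SciPy 1.17.1, and the search and the site assignment were tested on simulated data. Alternatives were the conservative list, the highest-signal sites, each replicate alone, other distances, annotations and biotypes, and other settings of each measure.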

Additional observations from a re-analysis of the deposited data

Results flagged for a closer look

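Peaks that entered neither IDR list also held cores. Among pooled peaks within 1000 bp of a lncRNA TSS, more than 1000 bp from protein-coding TSSs and more than 2000 bp from any listed site, 141 of 2213 held a CTCF core (6.37%, 5.43 to 7.47%), against 0.791% of the windows 1000 bp to either side of them. The result was set apart because these peaks are outside the lists used above and exceed their flanks. Over all 178996 such peaks the share was 7.99%, so the peaks at lncRNA starts were not above the rest.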

How the results depend on the processing

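No paired analysis was possible because there is 1 group. Of 95 recomputed values, 61 were counted as the same and 34 as moved. A share was the same if inside the 95% interval of the reported one. The median log2 signal and GC had to lie within the standard deviation of the 2 replicate values. For the replicate ratio the limit was a change smaller than the ratio itself, so its 9 values counted as the same say little. The share of lncRNA genes with a site was 6.54% with only the higher-signal part of the list, 7.47% and 4.74% with TSS limits of 500 and 250 bp, 8.83% with protein-coding TSSs over 5000 bp away, 10.3% at outermost 5′ ends, and 11.5 to 11.6% without one replicate. The core share was 54.0% in the higher-signal part, 10.8% without mismatch, 70.6% with 2 mismatches and 35.7% within 25 bp of the summit, and 40.4 to 40.6% without one replicate. The median log2 signal was 6.65 in the conservative list, 7.85 in the higher-signal part, and 6.71 and 6.68 with limits of 500 and 250 bp. Without one replicate it was 5.47 to 5.55, on the scale of a single replicate. The strand share was 63.3% with a limit of 250 bp, and 53.3 to 53.6% without one replicate. The masked share was 9.42% in the higher-signal part, 8.16% and 6.73% with limits of 500 and 250 bp, 9.27% when most of the window had to be masked, and 11.4 to 11.5% without one replicate. The share of the commonest core was 6.00% in the higher-signal part and 8.57% and 6.51% with limits of 500 and 250 bp. Replicates gave the same median GC (49.45%), so any shift counted as moved; it was 49.35% in the conservative list and with all transcripts of protein-coding genes, 48.65% in the higher-signal part, 50.15% with both shorter limits, 48.85% with protein-coding TSSs over 5000 bp away, 49.65% at outermost ends, 49.45% for lincRNA and antisense genes, and 52.7% within 100 bp of the summit. The cause was not tested. The alternatives for the commonest core and for the strand share within 100 bp, which ranged between 63.0 and 68.4%, were chosen after seeing the data. Unknown depth, 1 donor identifier and annotation without RNA limit what these values show.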
